A study of Xenopus laevis with 4 samples.

Results

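The genes described here encode the transcription factors that govern the genes of motile cilia: the forkhead factors foxj1, foxj1.2 and foxn4 and the regulatory factor X (rfx) family. Members were all probe sets whose gene symbol in the platform annotation, without its .L or .S ending, was foxj1, foxj1.2, foxn4 or rfx followed by a digit. There were 6 such genes, each read by a single probe set, among 11303 named genes on the array. Of these, 5 were foxj1.S, foxj1.L, foxj1.2.L, foxn4.S and rfx2.S. The sixth was rfx5.L, which carries the family name but is known in mammals for its part in switching on major histocompatibility class II genes, not cilia. All 6 passed the filter on low signal. The endings .L and .S mark homeologs, the copies of a gene on the long and short chromosomes of the allotetraploid frog Xenopus laevis. The homeologs foxn4.L, foxj1.2.S and rfx5.S and the genes rfx1, rfx3, rfx4, rfx6 and rfx7 were not analysed here.

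Foxj1 is the forkhead factor best known as the switch for motile cilia: in frog, fish and mouse it turns on genes of the axoneme, the moving core of the cilium. Rfx factors bind the X-box in promoters of ciliary genes, including those of intraflagellar transport, and Rfx2 works beside Foxj1 in frog multiciliated cells. Foxn4 acts in multiciliated cells of the frog skin and in neural progenitors. In these cells multicilin, a coiled-coil nuclear protein made by mcidas, joins E2f4 and its partner Dp1 to start the programme of centriole multiplication and ciliation, while Notch signalling keeps cells from that fate.

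Expression was measured on 4 one-colour Affymetrix arrays, 2 per group, in epithelial explants of presumptive ectoderm. The first group came from embryos injected with synthetic mRNA for ICD and MCI-HGR, and the second from embryos injected with ICD mRNA alone. By the usual naming in this field, ICD is the intracellular domain of Notch, so both groups carried active Notch, and MCI-HGR is multicilin fused to a hormone-binding domain that dexamethasone releases. mRNA was injected at the 2-cell stage, the ectoderm was explanted at stage 9 to 10, both groups received dexamethasone at stage 11.5, and the explants were harvested after 5 h, at about stage 14. The genotype and strain of the frogs are not given in the labels, and the injected mRNA does not restrict expression to a cell type, so the comparison reports a forced level of multicilin in cells held under forced Notch signalling. The labels do not say whether replicates came from separate clutches. p-values therefore measure only the spread between these samples, which may be technical.

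The median signal of 32539 probe sets was 44.2 and 37.1 on the MCI-HGR arrays (replicate 1 and 2) and 45.4 and 37.6 on the ICD arrays. Arrays that shared a replicate number were alike, so values are also given within each number: set 1 is the MCI-HGR and ICD arrays numbered 1, and set 2 those numbered 2. The middle to 3′ ratio of the actin control was 0.569 and 0.401 on the MCI-HGR arrays and 0.64 and 0.652 on the ICD arrays. The 5′ to 3′ ratio of the gapdh control was 0.526 and 0.467 against 0.572 and 0.586, in the same order. For the dap control it was 0.0439 and 0.03 against 0.0608 and 0.0625. Each ratio was thus lower on both MCI-HGR arrays than on either ICD array and ran with the group. The part of this difference in the results below was not tested. All 23 measured genes on a list of ectoderm and epidermis markers were above the highest tag control on all arrays. So were all 12 neural and all 9 ionocyte markers measured. The same held for 6 of 7 endoderm, 7 of 10 mesoderm and 7 of 8 small secretory and cement gland markers. Clearing the tag controls thus did not set ectoderm markers apart. With the replicate number as a block, 3 of the 23 were higher with MCI-HGR and 4 lower. Those called included both copies of tp63 (log2 difference -1.38 for tp63.S and -1.01 for tp63.L) and of grhl3 (0.70 for grhl3.L and 1.28 for grhl3.S). Without the block, 0 of the 23 passed. The part of these changes in the results below was not tested. In bulk explants, fewer cells that express a gene and less RNA per cell cannot be told apart.

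Without a term for the array set, limma called 0 of 24404 probe sets higher and 0 lower (0.00% each) at an adjusted p of 0.05, and the smallest adjusted p = 0.101. At an unadjusted p of 0.05, 712 of the 24404 probe sets were higher and 124 lower. Together they are a smaller share than the 0.05 that would be reached on average with no difference. With the replicate number as a block, 1142 probe sets were called higher, 4.68% of those tested, and 551 lower, or 2.26%. The blocked fit has 1 residual degree of freedom and borrows most of its variance estimate from all probe sets, with a prior of 15.1 degrees of freedom. "Rose" and "fell" are used below for what passed in the blocked fit, and calls without the block are given beside the counts or genes. Each SE is from the fit without the block unless stated otherwise.

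All 5 ciliary factors read by a probe set with their symbol rose with MCI-HGR, and rfx5.L did not. Of the 6 members, 5 rose and 0 fell with the block, beside 4.68% of all probe sets tested higher and 2.26% lower. Without the block, 0 members passed. Because the members were chosen with earlier results of these data known, these counts and the ranks below are no test. The 5 were higher on both MCI-HGR arrays than on either ICD array, a pattern shown by 11.5% of all probe sets tested, and rfx5.L was lower on both, as were 11.8%. The median log2 difference of the 6 was 3.14, against -0.015 over all probe sets tested. By size of log2 difference foxj1.2.L ranked 14, foxj1.S 30, foxn4.S 32, foxj1.L 78 and rfx2.S 316 of the 24404 probe sets, counted from the highest.

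**Figure D1:**
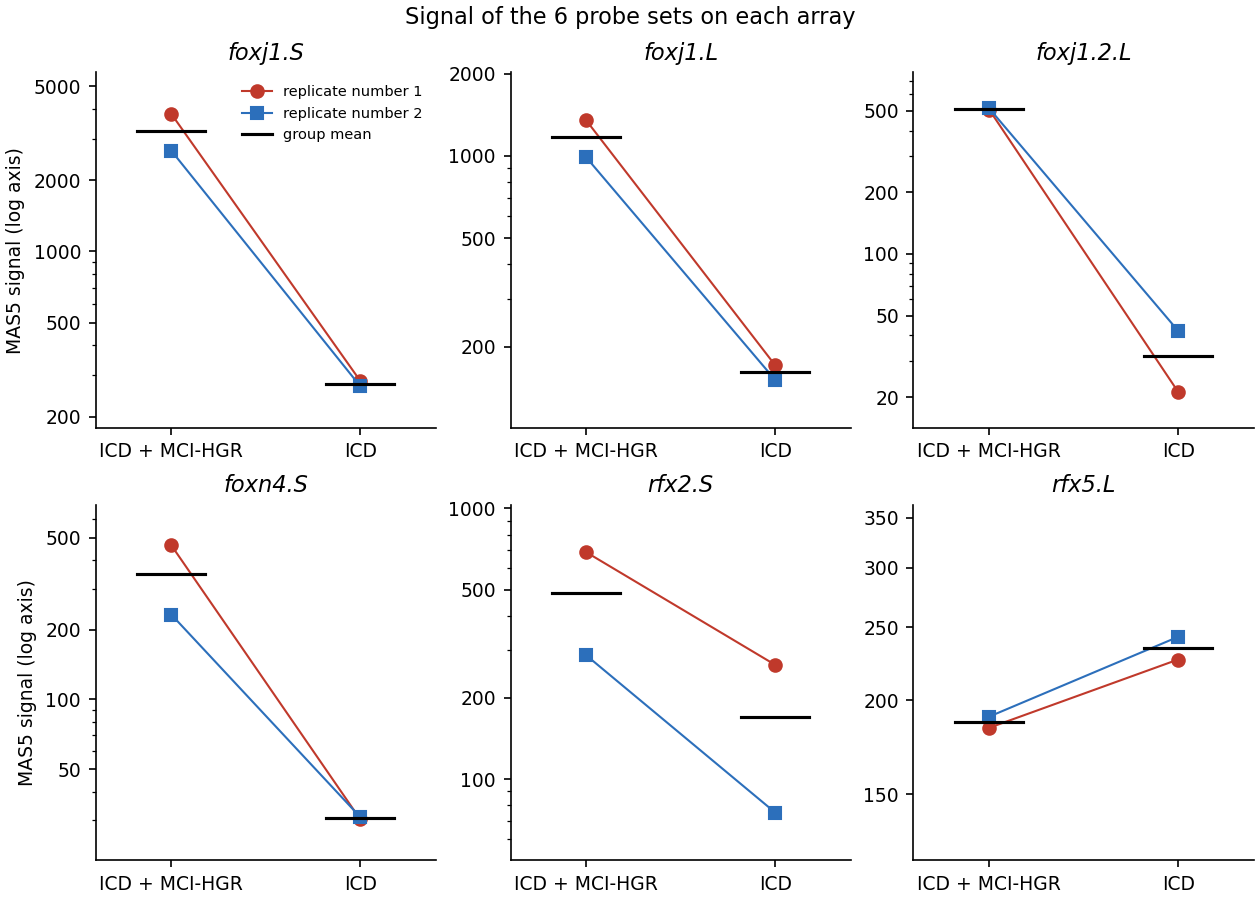
MAS5 signal (log axis) of each of the 6 probe sets on the 4 arrays, with the MCI-HGR arrays left of the ICD arrays; circles and squares are replicate numbers 1 and 2, lines join arrays of the same number, and black bars are group means; each panel has its own scale. The 4 forkhead genes stand far apart between groups, rfx2.S differs by number about as much as by group, and rfx5.L is slightly lower with MCI-HGR.

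The .S copy of foxj1 gave the smallest p of the members in both fits. foxj1.S (probe set Xl2.34501.1.S1_at) had a signal of 3818.8 and 2668.4 on the MCI-HGR arrays, against 283 and 268.7 on the ICD arrays. The groups did not overlap, and the lower MCI-HGR array was 9.43 times the higher ICD array. It averaged 3244 ± 813 with MCI-HGR and 276 ± 10.1 with ICD alone (SD, n = 2 per group). foxj1.S rose 13.5-fold within set 1 and 9.93-fold within set 2, a log2 difference of 3.53 ± 0.24 (SE, limma, adjusted p = 1.74e-12 with the block and 0.101 without). By p without the block it ranked 6 of 24404.

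The .L copy, foxj1.L (probe set Xl2.1396.1.S1_at), had 1351.6 and 989 on the MCI-HGR arrays, against 170.8 and 150.9 on the ICD arrays. The groups did not overlap. foxj1.L rose 7.91-fold within set 1 and 6.55-fold within set 2, with a log2 difference of 2.85 ± 0.25 (SE, limma, adjusted p = 5.66e-11 with the block and 0.132 without). Both copies were well above background with ICD alone: on the ICD arrays the signal was at least 21.8 times the highest tag control of its array for foxj1.S and at least 13.1 times for foxj1.L.

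In the blocked fit, the probe sets of the foxj1 homeologs did not rise by the same factor. The signal of foxj1.S relative to foxj1.L was 2.83 and 2.70 on the MCI-HGR arrays, against 1.66 and 1.78 on the ICD arrays. Signals of different probe sets are not comparable as levels, so only the change of their ratio between arrays is read here. That change can also depend on how each probe set responds, which was not tested. The ratio was 1.71 times as high with MCI-HGR in set 1 and 1.52 times in set 2, which is a log2 change of 0.68, with a 95% interval of 0.42 to 0.95 with the block and 0.14 to 1.22 without. In a limma fit of this ratio over 1609 homeolog pairs, its adjusted p = 0.0393 with the block, where 22 pairs, or 1.37%, passed, and 1 without it, where 0 passed (0.00%) and 30 had an unadjusted p of 0.05. A log2 change of this size or more was seen in 6.96% of pairs. Among the 16 pairs in which both copies rose at least 2-fold, the .S copy had the larger fold in 10, and 7 pairs had a larger change of ratio than foxj1. The median size of the log2 change in these 16 was 0.68, so that of foxj1 was a common size among them. With the block, 4 of the 16 passed, foxj1 included. These counts include tekt2, whose .L copy did not exceed the tag controls on either ICD array, so that its ratio is no exact value. That copy also passed the low-signal filter only through the MCI-HGR arrays. Near-identical homeologs can share probes, and how far each foxj1 probe set also reads the other copy was not tested.

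**Figure D2:**
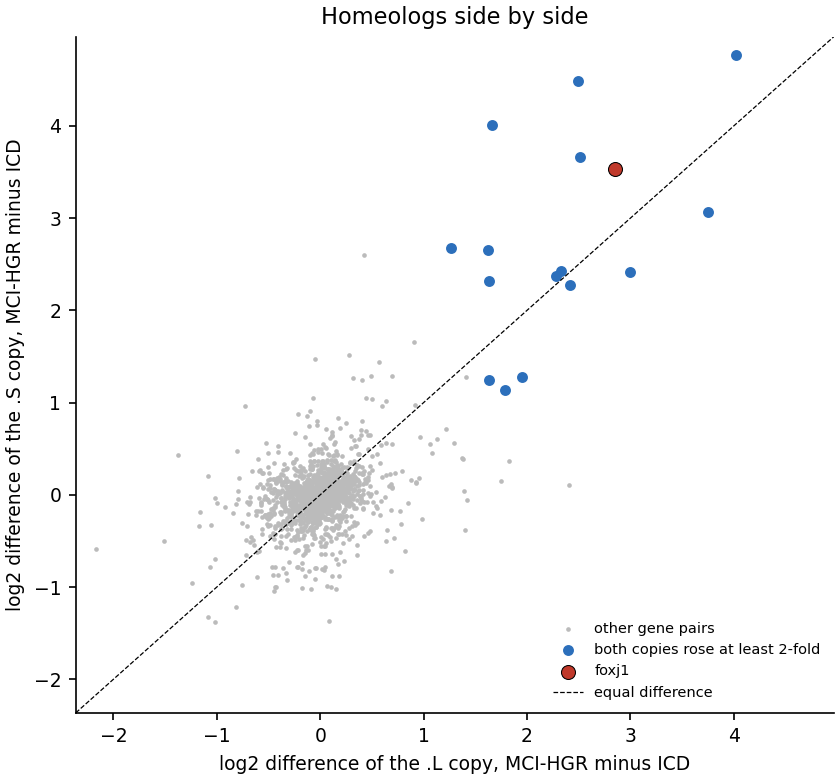
Log2 difference (MCI-HGR minus ICD) of the .L copy (x axis) and the .S copy (y axis) for 1609 gene pairs with both copies measured; blue points are the other pairs in which both copies rose at least 2-fold, and the dashed line marks equal differences. The foxj1 point, at 2.85 and 3.53, lies above the line.

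The paralogue foxj1.2 gave the largest fold among the members. foxj1.2.L (probe set Xl2.55428.1.S1_at) had 506.6 and 513.5 on the MCI-HGR arrays, against 21.2 and 42.1 on the ICD arrays. The MCI-HGR arrays were nearly equal, while the ICD arrays were both dim and differed from each other by a gap that 16.2% of probe sets reached. Its lower ICD signal was 1.63 times the highest tag control of that array, so the fold in set 1 rests on a dim signal. foxj1.2.L rose 23.9-fold within set 1 and 12.2-fold within set 2 (log2 difference 4.09 ± 0.41, SE, limma, adjusted p = 6.42e-10 with the block and 0.174 without).

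foxn4.S, the other forkhead factor of multiciliated cells, was dim and nearly equal on the ICD arrays. foxn4.S (probe set Xl2.50790.1.S1_at) had 463.7 and 232.7 on the MCI-HGR arrays, against 30.3 and 31 on the ICD arrays. The groups did not overlap, but the MCI-HGR arrays differed 1.99-fold from each other. foxn4.S rose 15.3-fold within set 1 and 7.51-fold within set 2 (log2 difference 3.42 ± 0.41, SE, limma, adjusted p = 1.11e-08 with the block and 0.183 without).

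The X-box factor rfx2.S rose least of the 5 and varied most between array sets. rfx2.S (probe set Xl2.1771.1.S1_at) had 689.2 and 286.7 on the MCI-HGR arrays, against 264.2 and 75.2 on the ICD arrays. Its lower MCI-HGR signal exceeded its higher ICD signal by a factor of only 1.09. Within a set the difference was plain: rfx2.S rose 2.61-fold within set 1 and 3.81-fold within set 2, a log2 difference of 1.66 ± 0.15 with the block (SE, limma, adjusted p = 6.46e-07). Without the block the SE was 0.73, the 95% interval ran from -0.23 to 3.54, and the adjusted p = 1. Leaving out 1 array moved the unblocked log2 difference from 0.75, without ICD replicate 2, to 2.56, without ICD replicate 1; with an MCI-HGR array left out it was 1.02 (replicate 1) or 2.29 (replicate 2).

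The gap between array sets was large for rfx2.S in both groups. Its signal in replicate 1 was 2.40 times that in replicate 2 with MCI-HGR and 3.51 times with ICD alone, gaps reached by 7.98% and 3.16% of probe sets. Of the other members, foxj1.S, foxj1.L, foxn4.S and rfx5.L differed 1.13-fold or less between the ICD arrays, while foxj1.2.L was lower in replicate 1, at 0.504 times its signal in replicate 2. Some marker lists of other tissues also differed by set and others did not: the summed signal of 12 neural markers was 8510 and 4239 on the MCI-HGR arrays and 9360 and 3651 on the ICD arrays, and that of 10 mesoderm markers 1224 and 249 on the MCI-HGR arrays and 2052 and 234 on the ICD arrays. Small secretory and cement gland markers ran the other way, with summed signals of 7286 and 20599 on the MCI-HGR arrays and 10154 and 23457 on the ICD arrays. Endoderm markers differed little, at 961 and 857 on the MCI-HGR arrays and 923 and 914 on the ICD arrays, as did ionocyte markers, at 2025 and 1837 on the MCI-HGR arrays and 1847 and 1619 on the ICD arrays. For the 23 ectoderm and epidermis markers the sums were 67703 and 84841 on the MCI-HGR arrays and 62468 and 85819 on the ICD arrays. Such sums can rest mostly on the brightest probe sets of a list. The part of these tissues in the rfx2.S gap was not tested.

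The remaining family member, rfx5.L, which has no known ciliary role, did not pass. rfx5.L (probe set Xl2.40386.1.S1_at) had 183.8 and 190.2 on the MCI-HGR arrays, against 226.6 and 242.9 on the ICD arrays. The signal was lower with MCI-HGR in both sets, by a factor of 1.23 in set 1 and 1.28 in set 2, and the groups did not overlap. Its log2 difference was -0.33 (limma, adjusted p = 0.227 with the block and 1 without), and its 95% interval without the block was -0.92 to 0.27.

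**Figure D3:**
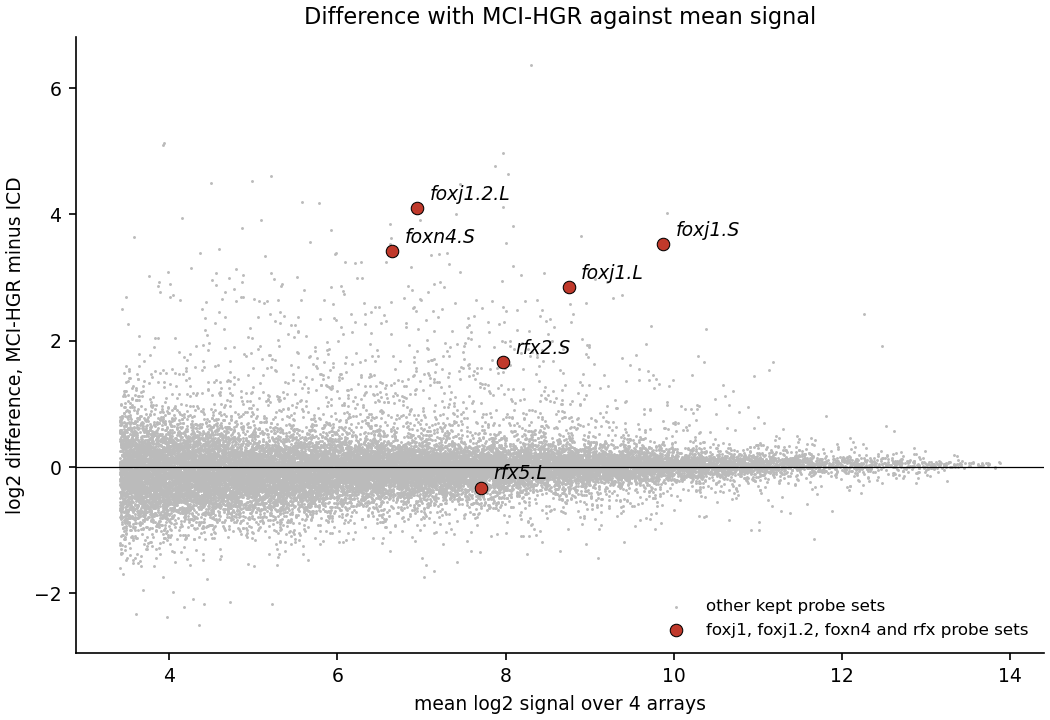
Log2 difference (MCI-HGR minus ICD) of 24404 probe sets against their mean log2 signal over the 4 arrays, with the 6 members marked. The forkhead members lie between 2.85 and 4.09, rfx2.S at 1.66, and rfx5.L at -0.33, inside the bulk of the probe sets.

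The forkhead members and multicilin itself shared an order of folds between the sets. mcidas.S had 384.2 and 141.5 on the MCI-HGR arrays, against 9.7 and 17.1 on the ICD arrays, so its signal with MCI-HGR was higher in set 1; whether the probe set reads injected or embryonic mRNA is not known here. Its ICD signal in set 1 was below the highest tag control, and mcidas.S was at least 29.6-fold higher in set 1 and 8.27-fold higher in set 2. All 4 forkhead members also had the larger fold in set 1, and rfx2.S had it in set 2. For foxj1.2.L this order came from the dim ICD signals, 21.2 and 42.1. Its MCI-HGR signals were nearly equal, at 506.6 and 513.5, and so did not follow those of mcidas.S. The gap of log2 fold, set 1 minus set 2, was 1.03 for foxn4.S, 0.97 for foxj1.2.L, 0.44 for foxj1.S, 0.27 for foxj1.L and -0.55 for rfx2.S. Gaps at least as large were found in 6.62%, 7.54%, 29.4%, 46.8% and 22.3% of all probe sets, in the same order, so those of both foxj1 homeologs were common sizes.

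Most genes of the motile axoneme had the other order. Among 45 measured genes of the motile axoneme, 3 had the larger fold in set 1, and their median log2 fold was 1.91 within set 1 and 2.49 within set 2. Among 28 genes of intraflagellar transport, the BBSome and further genes linked to rfx factors, 8 had it in set 1, with medians of 0.88 and 1.22. Over all 9380 genes measured, 45.5% had the larger log2 fold in set 1. Among genes that rose, 30.2% of the 288 at 2-fold or more did. The share was 32.7% of the 107 at 4-fold or more and 40.6% of the 32 at 8-fold or more. The share in the transport list was thus like that of all genes that rose at least 2-fold. Those genes include many of the axoneme and transport lists, so they are no separate background. With 1 array of each group per set, the difference between sets has no test.

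**Figure D4:**
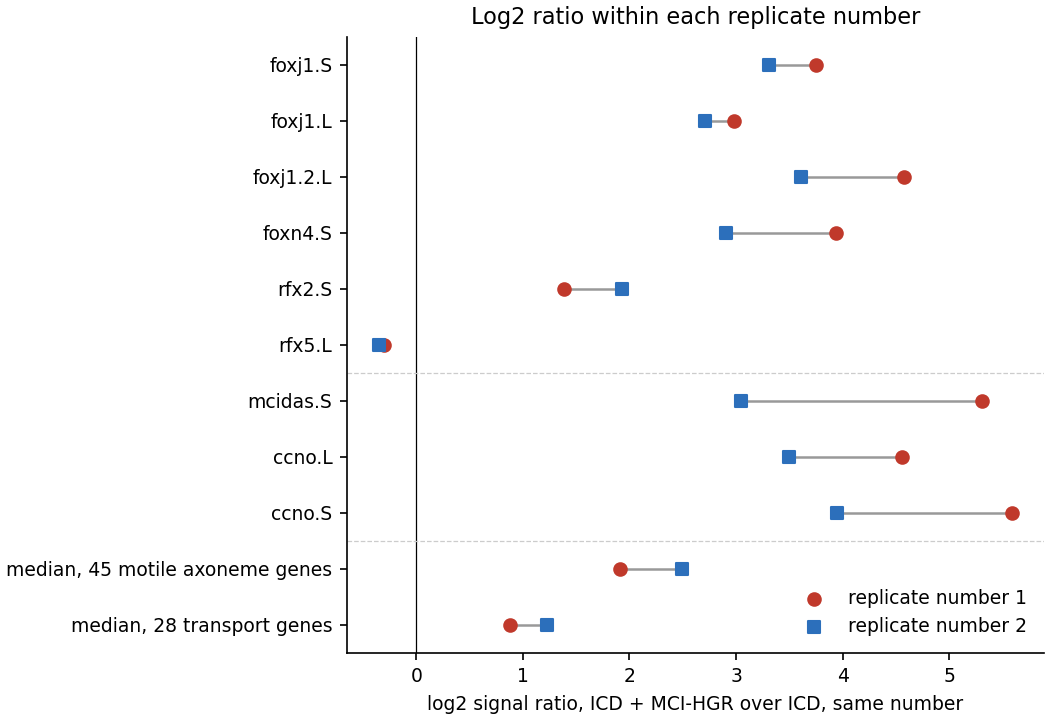
Log2 of the signal ratio, MCI-HGR array over the ICD array of the same number, for set 1 (circles) and set 2 (squares), for the members, for mcidas and ccno as read, and as the median of the axoneme and transport lists. The forkhead members, mcidas.S and both ccno copies lie further right in set 1, and rfx2.S and both list medians further right in set 2.

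The probe sets most like foxj1.S were sought by the Euclidean distance between log2 signals over the 4 arrays, each centred on its own mean, among 12102 probe sets of named genes. In order of distance they were cetn4.L (0.35), a centrin gene of centrioles; kit.S (0.40), a receptor tyrosine kinase gene; bbs12.L (0.52), of the chaperonin-like proteins that help assemble the BBSome; wrap73.L (0.57); and ccno.L (0.63), the cyclin-like gene needed for centriole multiplication. cetn4.L had 1227.6 and 852 on the MCI-HGR arrays and 67.3 and 78.5 on the ICD arrays. Of the other members, foxn4.S lay at 0.36, with 1 of these probe sets nearer, and foxj1.L at 0.69, with 6 nearer. foxj1.2.L at 1.01 had 19 nearer and rfx2.S at 2.30 had 208 nearer, and rfx5.L, furthest of the members at 3.88, had 9941 nearer. The place of wrap73.L rests in part on an ICD signal of 11.9 in set 1, below the highest tag control of 13 on that array. With 4 arrays in 2 groups this likeness mainly reflects the size of the group difference.

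Of the other regulators of multiciliated cells, about as many passed as did not. Of 12 measured genes besides fox and rfx, 6 rose and 1 fell, and none of the 12 passed without the block, against 5.74% and 2.56% of 9380 genes higher and lower with the block. The 6 include mcidas.S, the injected gene, whose probe set may read the injected mRNA. The gene that fell was gmnn.S, of geminin, a relative of multicilin that restrains DNA replication (log2 difference -0.30, limma, adjusted p = 0.0388 with the block and 1 without). Its homeolog gmnn.L had nearly the same log2 difference, -0.30, but did not pass (limma, adjusted p = 0.102 with the block). The median log2 difference of the 12 was 0.28, against 0.0065 over all genes. Their list was chosen with earlier results of these data known. ccno.L had 4812.3 and 3189.5 on the MCI-HGR arrays, against 204.5 and 283.5 on the ICD arrays, and rose 23.5-fold within set 1 and 11.3-fold within set 2 (limma, adjusted p = 3.74e-11 with the block and 0.109 without). ccno.S rose 48.1-fold within set 1 and 15.4-fold within set 2 (limma, adjusted p = 8.36e-10 with the block and 0.174 without). e2f4.S, the gene of multicilin's partner, had 252 and 244.6 on the MCI-HGR arrays and 254 and 252.3 on the ICD arrays, and did not pass (log2 difference -0.028, limma, adjusted p = 0.954 with the block and 1 without).

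Most listed genes of the motile axoneme, known as foxj1 targets in frog or mouse, rose too. The list was chosen with earlier results of these data known, so its count is no test, and the part of Foxj1 in these rises was not tested. Of the 45 axoneme genes, 43 rose, 0 fell and 2, gas8.S and spata17.L, did not pass, beside 5.74% of all genes higher and 2.56% lower; 0 of the 45 passed without the block. Their median log2 difference was 2.29, or 2.15 with tekt2.L, which did not exceed the tag controls on either ICD array, at its bound. This gene counts among the 43, yet it passed the low-signal filter only through the MCI-HGR arrays. Its rise was thus in part set by the filter. The tektin gene tekt2.S had 741.8 and 942.4 on the MCI-HGR arrays, against 37 and 37.5 on the ICD arrays, and rose 20.05-fold within set 1 and 25.1-fold within set 2 (limma, adjusted p = 6.30e-12 with the block and 0.101 without). cfap52.S, of the inner wall of ciliary microtubules, rose 16.1-fold by the means of log2 signal (limma, adjusted p = 7.39e-11 with the block and 0.126 without).

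Of the 28 transport and rfx-linked genes, 22 rose, 0 fell and 6 did not pass, beside the same 5.74% and 2.56% of all genes, and 0 passed without the block. Their median log2 difference was 1.06. This list, too, was chosen with earlier results of these data known. rabl2b.S, of a small GTPase of the transport machinery, had 372.9 and 297.5 on the MCI-HGR arrays, against 57.1 and 72.7 on the ICD arrays (limma, adjusted p = 7.31e-08 with the block and 0.183 without). hspb11.L, which encodes Ift25, rose 4.47-fold and ift80.L 3.21-fold by the means of log2 signal (limma, adjusted p = 4.91e-09 and 1.41e-07 with the block, 0.187 and 0.517 without). The 6 that did not pass included kif3a.L, of the motor that carries transport trains, with a log2 difference of 0.25, and rfxank.S, whose product pairs with Rfx5 in mammals, with one of -0.061.

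Most forkhead genes other than foxj1, foxj1.2 and foxn4 did not pass. Of 38 on the array 25 were measured, of which 1 rose, 2 fell and 22 did not pass, beside 5.74% and 2.56% of all genes, and their median log2 difference was -0.094. The highest was foxa1.S, of a pioneer factor that also marks small secretory cells in frog skin, with 74.9 and 90.3 on the MCI-HGR arrays, against 37.1 and 48.2 on the ICD arrays (1.94-fold, limma, adjusted p = 0.00949 with the block and 1 without). The lowest was foxe3.L, at 15.4 and 4.1 on the MCI-HGR arrays and 31.2 and 9.4 on the ICD arrays, which did not pass and on 1 array of each group was not above the tag controls, so its place rests in part on background values. The lowest forkhead member, foxj1.L at 2.85, had a larger log2 difference than foxa1.S at 0.96, so the 4 forkhead members and the 25 others measured did not overlap. Members were chosen with earlier results of these data known, so this gap is no test. Of the 25, 19 were above the tag controls on all arrays. The homeolog foxa1.L ran against foxa1.S, with a lower signal under MCI-HGR in both sets, though it was not called (log2 difference -0.73, limma, adjusted p = 0.195 with the block). Among the 8 measured small secretory and cement gland markers, which include both foxa1 copies, only foxa1.S rose and 3 fell. The median log2 difference of these markers was -0.26.

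**Figure D5:**
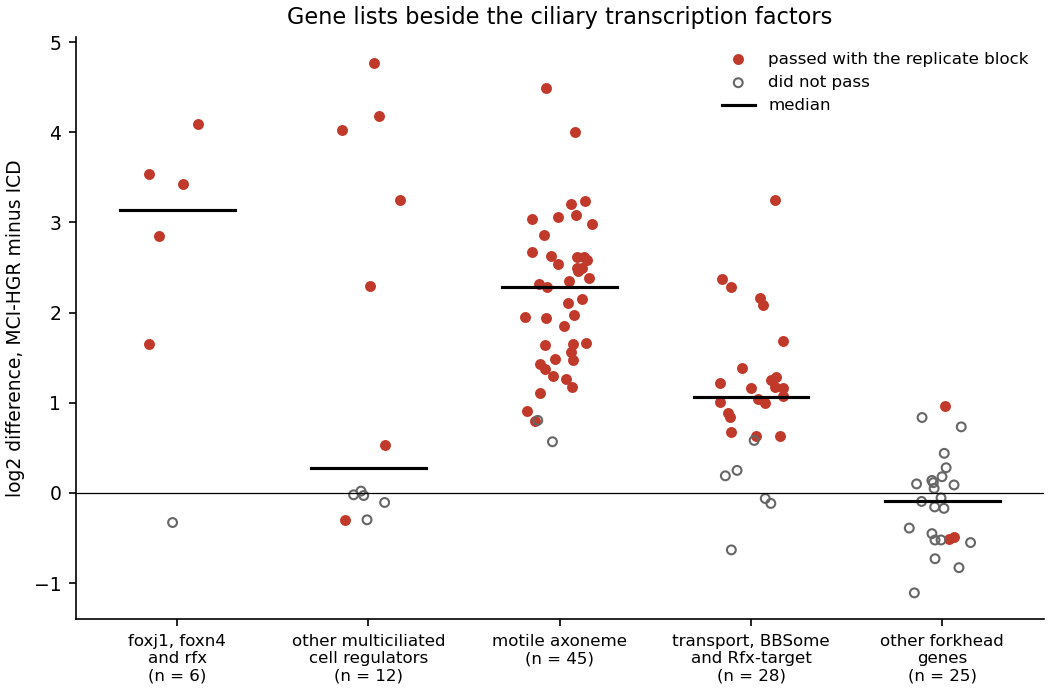
Log2 difference (MCI-HGR minus ICD) of each measured gene in the 6 members and in 4 gene lists; filled points passed with the replicate block, open points did not, and bars are medians. The forkhead members lie above every other measured forkhead gene, and the axoneme genes centre on 2.29.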

How the data were processed

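RNA of 4 explant samples was read on Affymetrix arrays. The authors deposited 1 linear signal intensity per probe set and array, per the submitters' processing notes from MAS5, whose version and scaling target those notes leave out. MAS5 summarises arrays one by one, and its dim signals are the least precise. Having 4 arrays limits the precision.

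From these values, 96 control probe sets were left out, log2 was taken, and the lowest 25% by mean log2 signal (below about 10.6) were removed, which left 24404 of 32539. Of the probe sets besides controls, 15495 had 1 gene symbol, 279 several and 16765 were unnamed here; 15384 matched the RefSeq gene table, used for names only. Where several probe sets read a gene on a list, the one of highest mean signal was used.

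The tests were made with limma (version 3.58.1, R 4.3.3; intensity trend, two-sided, Benjamini-Hochberg over all probe sets), with the group as the one term. A blocked fit, with the replicate number as a fixed term, is printed beside it, since it changes the calls. Labels do not say what the numbers mark; differences between replicates 1 and 2 correlated between the groups at 0.745 over 24404 probe sets. Homeolog ratios were fitted likewise over all pairs. The highest of 17 tag control probe sets served as background, 12.4 and 9.2 on the MCI-HGR arrays and 13 and 10 on the ICD arrays. Fits were also run on simulated data whose spread was drawn from the blocked fit itself. That run therefore cannot show whether the blocked fit suits these arrays. Named genes were the members, the 5 probe sets nearest to foxj1.S, the 2 genes of smallest unblocked p in each list, the highest and lowest other forkhead gene, and mcidas, ccno, e2f4, tekt2 and ift80; the genes of transport and axoneme lists that did not pass and are named were chosen after their values were seen. Both copies of tp63 and of grhl3, and gmnn.S, fall outside these rules and were also named after their values were seen. The homeologs foxa1.L and gmnn.L were named beside their partners. Members and lists were chosen with earlier results of these data known. Alternatives were the dim filter, scaling, offset, trend, block, 1 probe set per gene and leaving out each array.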

Additional observations from a re-analysis of the deposited data

How the results depend on the processing

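Each member and the foxj1 homeolog ratio kept their direction under every alternative run. With the replicate block, 1142 probe sets were higher and 551 lower, and 22 homeolog pairs passed. With the replicate block and quantile normalization these counts were 986, 522 and 130. In these 2 fits, in that order, the log2 difference was 3.53 and 3.52 for foxj1.S, 2.85 and 2.82 for foxj1.L, 4.09 and 4.11 for foxj1.2.L, 3.42 and 3.45 for foxn4.S, 1.66 and 1.60 for rfx2.S and 0.68 and 0.70 for the foxj1 homeolog ratio, and each passed. The block by its construction removes the difference between sets. rfx5.L passed in neither fit.

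Without a block, leaving out 1 array at a time gave 0 to 126 probe sets higher (126 without ICD replicate 1, 82 without ICD replicate 2, 0 without either MCI-HGR array) and 0 lower. The log2 difference then ran from 3.27 to 3.79 for foxj1.S, 2.62 to 3.07 for foxj1.L, 3.60 to 4.59 for foxj1.2.L, 2.92 to 3.92 for foxn4.S and 0.75 to 2.56 for rfx2.S. Without ICD replicate 1 or 2, in fits where the lone ICD array is assumed to vary like the other group, foxj1.S (limma, adjusted p = 0.000536 and 0.00078), foxj1.L (0.0037 and 0.01), foxj1.2.L (0.00324 and 0.0011) and foxn4.S (0.0118 and 0.0211) passed, and rfx2.S did not. No other setting (dim filter, scaling, offset, trend, 1 probe set per gene, mean over probe sets) changed a call. Across them the adjusted p of foxj1.S ran from 0.0651 to 0.302. The offset of 16 lowered the log2 difference of foxj1.2.L to 3.50 and of foxn4.S to 2.89, the members dimmest with ICD alone. With the block, leaving out an array leaves no residual degree of freedom, so that fit was not run.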
